A study of Saccharomyces cerevisiae with 6 samples.

Results

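Hexose transporters and glucose sensors were followed in a wine yeast that lacks KNR4 and in its parent during alcoholic fermentation. The group holds 10 genes of the 6388 in the deposited tables: the transporter genes HXT1 to HXT7, the sensor genes SNF3 and RGT2, and MTH1, a regulator of the HXT genes. They were taken by name, with no threshold, but as a set picked by its mutant-over-wild-type ratios, which were known for both phases when it was drawn up, so those ratios are a description. The adjusted p-values printed here place each gene in a fit over all genes and are not independent support for the choice.

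Yeast takes up glucose and fructose by facilitated diffusion through the Hxt carriers, and no energy is spent on the step. Hxt1 and Hxt3 have low affinity and serve when sugar is plentiful, Hxt2, Hxt6 and Hxt7 have high affinity and serve when it is scarce, Hxt4 is a glucose-induced carrier for lower sugar, and Hxt5 is known from slow growth and stationary phase. Snf3 and Rgt2 resemble transporters but signal instead of carrying sugar. Their signal leads to the loss of Mth1 and Std1, which otherwise keep the repressor Rgt1 on the HXT promoters. In wine fermentation the set of carriers in use is known to change as sugar is consumed and growth stops.

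EC1118 is an industrial diploid wine strain of Saccharomyces cerevisiae, and EKD-13 is its derivative with both copies of KNR4 deleted. KNR4 (SMI1, YGR229C) encodes a protein tied to cell wall synthesis and the cell wall integrity pathway. Both strains fermented the synthetic must MS300 at 28 °C in 1 L and were compared at 10 g of released CO2, in mid-exponential growth, and at 70 g, in stationary phase. Each of 6 arrays, 3 per phase, held mutant and wild-type RNA in 2 colours. Array 2 of each phase carried the mutant in Cy3 and the other arrays carried it in Cy5. EKD-13 is a single derivative in the labels. All arrays used RNA from whole cultures, in which fewer cells with a transcript and less transcript per cell cannot be told apart.

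All values are log2 ratios of mutant over wild type unless a level is named. The share of spots with a ratio was 77.0 to 85.6% on the mid-exponential arrays and 53.1 to 60.6% on the stationary ones, and 3 arrays per phase limit the precision. Each gene was printed as a pair of spots, which were averaged. In the authors' deposited table KNR4 itself stood at -1.89 in mid-exponential and -1.74 in stationary phase, while only mid-exponential array 3 carried a ratio for it, of -4.51. Of 12 genes that mark haploid cells and are repressed in diploids, 2 were tested and none was called by limma or in the authors' deposited table in either phase. Over all tested genes limma called 0.21% in mid-exponential and 4.76% in stationary phase. With 2 genes tested, and with ratios that cannot show a state common to both strains, this is no check of ploidy. The mutant and wild-type RNA of stationary array 2 came from different fermentation sets per the labels, unlike those of the other arrays. Beyond the group, genes of chromosome XII stood higher in the mutant, with a mean of array medians of 0.68 ± 0.10 and 0.70 ± 0.25 (SD, n = 3) in the 2 phases. None of the 10 genes lies on that chromosome.

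At the stationary point HXT1 and HXT6 transcript was more abundant, and HXT5 transcript less abundant, in the mutant than in the wild type. In the refit HXT1 stood 4.66-fold and HXT6 1.93-fold higher, while HXT5 stood 2.92-fold lower. The HXT1 call held in 14 of 16 alternative settings, but those of HXT5 and HXT6 in only 7 each. HXT5 stood at -0.53 on the log2 scale in the authors' deposited table, a smaller fall. HXT6 shares signal with HXT7, which the refit did not call. Of the 8 genes that could be tested HXT1, HXT5 and HXT6 were the 3 called, against 4.76% of the 4289 genes tested. The 2 calls that were higher stand beside 2.98% of those genes, and the 1 that was lower beside 1.77%. Nothing is read from these shares, since the group was drawn up with this contrast known. The authors' deposited table called 5 of the 10, adding HXT4 and HXT7 as higher, against 4.18% of its 6388 genes, 2.04% higher and 2.14% lower. HXT2 and SNF3 had no stationary ratio and were not tested.

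HXT1 (YHR094C), a low-affinity glucose carrier, showed the highest stationary ratio of the group on each of the 3 arrays. Its ratios were 2.17, 2.12 and 2.38 on stationary arrays 1, 2 and 3, a mean of 2.22 ± 0.14 (SD, n = 3). The arrays agreed closely, and both spots of a pair lay within 0.01 of each other on each of them. In the fit the estimate had an SE of 0.15, a 95% interval from 1.85 to 2.59, and a limma adjusted p of 0.0046. HXT1 stood at 2.11 in the authors' deposited table (adjusted p = 1.6e-04). The call was lost with the array number as a block (adjusted p = 0.090) and with stationary phase fitted on its own (adjusted p = 0.21), and the value stayed at 2.22 in both.

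HXT3 (YDR345C), the other low-affinity carrier of the group, did not follow HXT1. Its stationary ratios were -0.11, 0.46 and 0.10, with a mean of 0.15 ± 0.29 (n = 3). These lay on both sides of 0, and the pair of spots on array 1 was split, at -0.44 and 0.23. The fit gave a 95% interval from -0.29 to 0.59 and a limma adjusted p of 0.65. The authors' deposited table listed HXT3 at 0.14, not called (adjusted p = 0.94). Within each array HXT1 stood above HXT3 by 2.27, 1.65 and 2.28, a mean gap of 2.07 ± 0.36 (n = 3).

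**Figure D1:**
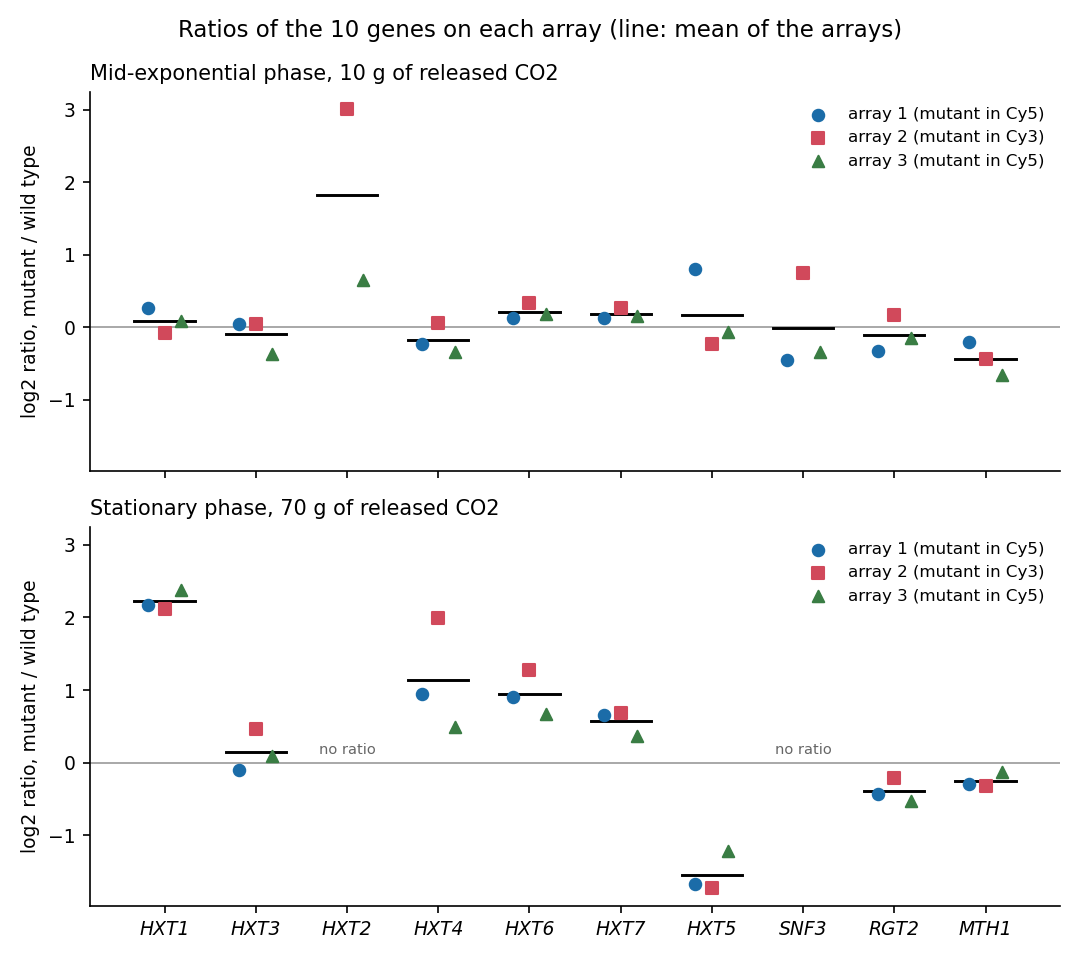
Log2 ratio of mutant over wild type (vertical axis) of the 10 genes on each array, mid-exponential above and stationary below. Each point is an array, with its shape and colour giving array number and dye, and the line is the mean. In stationary phase HXT1 sits at 2.12 to 2.38 and HXT5 at -1.74 to -1.22, while HXT2 and SNF3 have no ratio.

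HXT4, HXT6 and HXT7 were all above 0 on the 3 stationary arrays, and HXT6 alone of the 3 passed the test. HXT4 (YHR092C) had ratios of 0.94, 1.99 and 0.49, with a mean of 1.14 ± 0.77 (n = 3). Array 2 was the high one for HXT4, well above the others. The fit gave a 95% interval from 0.43 to 1.85 and a limma adjusted p of 0.083, and 0.72 (adjusted p = 0.079) without stationary replicate 2. The authors' deposited table called HXT4, at 1.04 with an adjusted p of 0.0094.

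HXT6 (YDR343C) had stationary ratios of 0.90, 1.27 and 0.67, with a mean of 0.95 ± 0.30 (n = 3). The lowest array still stood well above 0. The fit gave a 95% interval from 0.54 to 1.36 and a limma adjusted p of 0.037. This call did not hold with a dye term (adjusted p = 0.052), nor without any array other than stationary array 2, with adjusted p from 0.069 to 0.11. It was also lost with arrays at 1 spread (adjusted p = 0.083), with the replicate block (0.13) and with stationary phase fitted on its own (0.31). HXT7 (YDR342C) had 0.65, 0.68 and 0.37, a mean of 0.57 ± 0.17 (n = 3), with a limma adjusted p of 0.085. The authors' deposited table called both, HXT6 at 0.80 and HXT7 at 0.70, with adjusted p of 0.0020 and 0.0086.

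HXT6 and HXT7 are near-identical neighbouring genes whose spots share signal, so they are not independent measurements and neither is certain on its own. In mid-exponential phase the ratios of HXT6 and HXT7 differed by 0.00, 0.06 and 0.03 on arrays 1 to 3. In stationary phase HXT6 was above HXT7 on each array, by 0.25, 0.59 and 0.30, a mean of 0.38 ± 0.18 (n = 3). The copies stood further apart on the stationary arrays.

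The spread of the stationary ratios had an array pattern. For HXT3, HXT4, HXT6, HXT7 and RGT2, array 2 gave the highest ratio, and HXT1, HXT5 and MTH1 had their lowest there. Array 2 is the one with the mutant in Cy3 and with RNA from different fermentation sets. With a dye term over the 6 arrays the stationary values were 2.19 for HXT1, 1.27 for HXT4, -1.62 for HXT5 and 1.00 for HXT6. On the stationary arrays dye and set cannot be told apart, and the part of the sets was not tested. Within the arrays the order from the top was HXT1, HXT4, HXT6, HXT7 and HXT3 on arrays 1 and 2. On array 3 HXT6 stood above HXT4. HXT5 was the lowest of the 8 on every stationary array. By the range over arrays, HXT4 overlapped HXT6 and HXT6 overlapped HXT7, whereas HXT1 lay clear of HXT4, by 0.13 on array 2.

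HXT5 (YHR096C), the carrier known from slow-growing and stationary cells, went the other way. Its stationary ratios were -1.67, -1.74 and -1.22, with a mean of -1.55 ± 0.28 (n = 3). No array was near 0, and HXT1 exceeded HXT5 by 3.84, 3.85 and 3.60 within the arrays. The fit gave a 95% interval from -2.13 to -0.96 and a limma adjusted p of 0.031. The authors' deposited table also called HXT5 lower, but at -0.53 (adjusted p = 0.042), so the size of the fall is uncertain. In the refit the call did not hold without any array other than stationary array 2, with adjusted p from 0.065 to 0.11, nor on the lower-numbered spot alone (0.074), with arrays at 1 spread (0.10), with the replicate block (0.12) or with stationary phase fitted on its own (0.26).

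HXT2 (YMR011W), a high-affinity carrier, was barely measured. It had ratios of 3.01 and 0.65 on mid-exponential arrays 2 and 3, the first from 1 spot of the pair, and none on the other 4 arrays. The authors' mean log2 intensity of its spots, 6.85 and 6.88 in the 2 phases, was below the lower quartile of all genes, 7.32 and 7.10. The authors' deposited table listed HXT2 at 0.16 and 0.04, not called in either phase. The data therefore set no ratio for it.

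**Figure D2:**
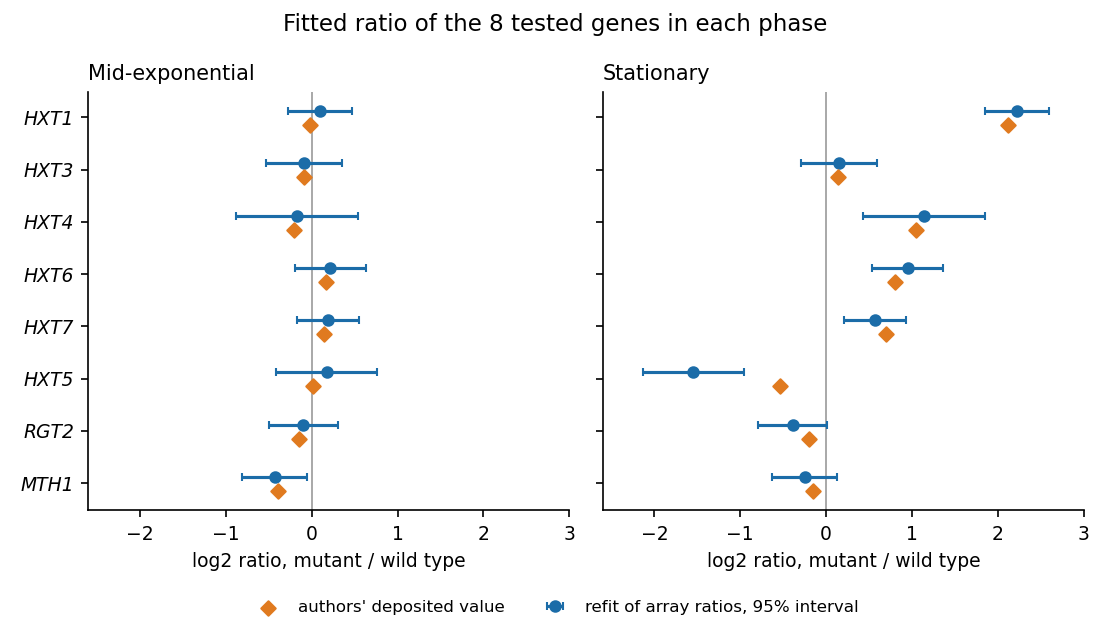
Fitted log2 ratio of mutant over wild type (horizontal axis) of the 8 tested genes in each phase: circles with bars are the refit and its 95% interval, diamonds the authors' deposited values. The refit and the authors' deposited table lie close for every gene but HXT5 in stationary phase, at -1.55 and -0.53.

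The sensor RGT2 and the regulator MTH1 stood nearer to 0 than most carriers, and neither passed the test. RGT2 (YDL138W), the sensor for high glucose, had stationary ratios of -0.43, -0.22 and -0.52, with a mean of -0.39 ± 0.16 (n = 3). It was below 0 on each array, and its 95% interval ran from -0.79 to 0.01 (limma adjusted p = 0.22). MTH1 (YDR277C) had -0.30, -0.32 and -0.13, a mean of -0.25 ± 0.10 (n = 3, limma adjusted p = 0.38). The authors' deposited table called neither in stationary phase, with RGT2 at -0.20 and MTH1 at -0.16. SNF3 (YDL194W), the sensor for low glucose, had no stationary ratio. Across the group 4 of 8 genes were above 0 on the 3 stationary arrays and 3 were below 0 on them, against 19.5% and 19.9% of the 3085 tested genes with 3 ratios. The 4 include HXT6 and HXT7, which share signal, and nothing is read from these counts.

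In mid-exponential phase the group showed little difference between the strains. The fitted ratios of the 8 tested genes lay between -0.43 and 0.22, against -1.55 to 2.22 in stationary phase. In limma none of the 8 was called, against 0.21% of all tested genes, with adjusted p from 0.30 to 0.91 and with 1 gene, MTH1, at an unadjusted p under 0.05. HXT1 had 0.27, -0.07 and 0.09, on both sides of 0, and its 95% interval, -0.28 to 0.47, leaves out a change of the stationary size. HXT3 had 0.05, 0.05 and -0.37, and HXT4 had -0.23, 0.06 and -0.35. HXT6 had 0.13, 0.33 and 0.19, and HXT7 had 0.13, 0.27 and 0.16, so this pair, 2 of the 9 genes with 3 ratios, was above 0 on the 3 arrays, against 24.9% of tested genes.

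MTH1 was below 0 on each mid-exponential array, at -0.21, -0.43 and -0.66, a mean of -0.43 ± 0.23 (n = 3). It was the 1 gene of the 9 to be so, against 26% of tested genes. The fit gave a 95% interval from -0.82 to -0.05 and a limma adjusted p of 0.30. The authors' deposited table called MTH1 lower, at -0.39 with an adjusted p of 0.036, the only 1 of the 10 genes it called in this phase, against 10.3% of all genes there, 4.63% lower. RGT2 had -0.33, 0.18 and -0.15, and SNF3 had -0.45, 0.75 and -0.34, with array 2 above 0 and the others below for both sensors. HXT5 had 0.81, -0.22 and -0.07. Its spots were dim in this phase, with an authors' mean log2 intensity of 6.80, and the pair on array 1 read 1.13 and 0.49.

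The strain difference itself was then compared between phases. For HXT1 the stationary ratio exceeded the mid-exponential one by 2.13 (SE 0.22, 95% interval 1.60 to 2.65, limma adjusted p = 0.043). This was the 1 call among the 8 genes, against 0.117% of all tested genes. The call held in 5 of 14 alternatives. It was lost with the replicate block (adjusted p = 0.48), with a dye term (0.12), on the higher-numbered spot alone (0.051), with arrays brought to 1 spread (0.11), and without any array other than stationary array 2 (0.10 to 0.37). The difference stayed between 1.62 and 2.22 in all of these. HXT5 differed by -1.72 (95% interval -2.55 to -0.89, limma adjusted p = 0.16), HXT4 by 1.31 (0.31 to 2.31, adjusted p = 0.29) and HXT6 by 0.73 (0.15 to 1.32, adjusted p = 0.30). The array ratios of the phases did not overlap for 5 of the 8 genes, HXT1, HXT4, HXT6 and HXT7 higher and HXT5 lower in stationary phase. The same held for 21.5% of the 3020 genes with 6 ratios, 10.9% higher and 10.6% lower. HXT6 and HXT7 share signal and the group was drawn up with these ratios known, so nothing is read from this count. HXT3, RGT2 and MTH1 overlapped between phases.

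Spot brightness in the authors' deposited tables gives a view of the transcripts over both strains. The tables were made separately for each phase, and the median gene was dimmer by 0.33 on the log2 scale in stationary phase. Mean log2 intensity went from 12.24 to 10.73 for HXT1 and from 14.04 to 11.74 for HXT4 between mid-exponential and stationary phase. HXT6 went from 12.11 to 10.79 and HXT7 from 13.42 to 12.54. These 4 were dimmer by more than the lower quartile of all genes, a difference of -0.83. HXT3 went the other way, from 13.62 to 13.87, and HXT5 brightened from 6.80 to 7.74, above the upper quartile of 0.05. Of the group, the 4 genes that the authors' deposited table called higher in the stationary mutant thus had spots that dimmed between phases. The 1 called lower had spots that brightened. The share of all called genes with this pattern was not counted, and the median gene dimmed too. These levels pool both strains, have no replicate error in the tables, and were not tested.

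**Figure D3:**
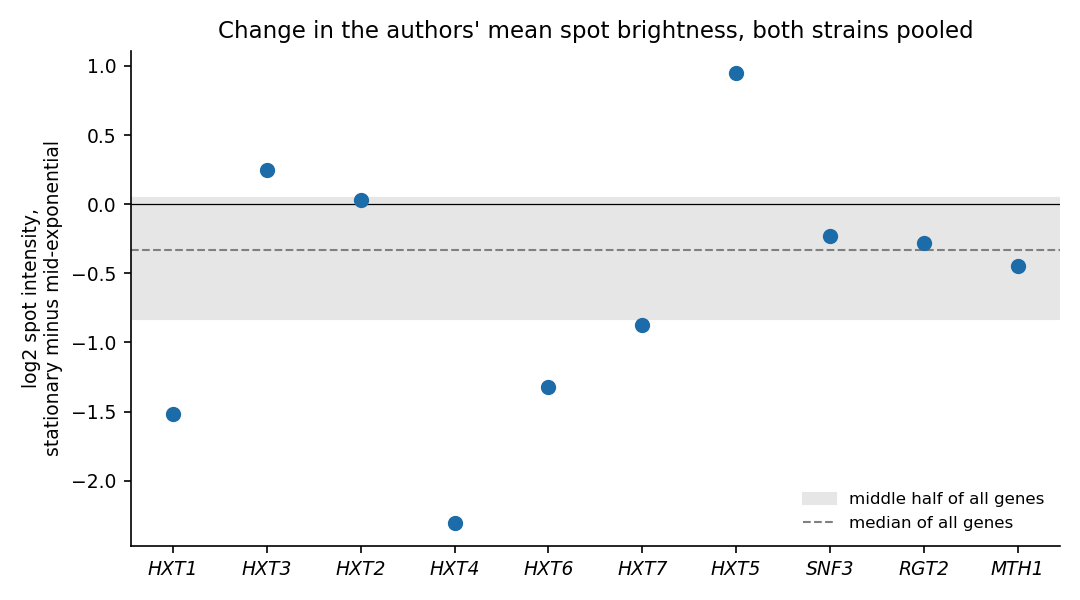
Authors' mean log2 spot intensity in stationary phase minus that in mid-exponential phase (vertical axis), both strains pooled, for each of the 10 genes. The dashed line is the median of all genes, -0.33, and the band their interquartile range. HXT4, HXT1, HXT6 and HXT7 lie below the band and HXT5 and HXT3 above it.

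All carrier genes but HXT2 lie in 2 clusters, and the neighbours HXT1 and HXT5 had opposite stationary ratios, while HXT7 and HXT6 had similar ones. On chromosome VIII the reference order is HXT4, AHT1, HXT1 and HXT5, so HXT1, the highest, and HXT5, the lowest, are direct neighbours in that order. The flanking MSR1 had stationary ratios of -1.04, -0.38 and -1.32, and SFB3 had -0.42, 0.42 and -0.44, neither called in limma (adjusted p = 0.12 and 0.73). AHT1, an open reading frame between HXT4 and HXT1, had 0.36 and 1.13 on arrays 1 and 3 and no ratio on array 2. Its stationary spots were dim, with an authors' mean log2 intensity of 6.98. The authors' deposited table listed AHT1 at 0.0013 in stationary phase, not called. On chromosome IV the order is HXT7, HXT6, YDR344C and HXT3, and YDR344C had 0.33, 0.99 and -0.58. Over the other tested genes of the chromosomes, the mean of stationary array medians was 0.04 ± 0.05 for the 197 of chromosome VIII and 0.00 ± 0.18 for the 577 of chromosome IV (SD, n = 3). Neither chromosome stood apart from 0 as a whole.

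**Figure D4:**
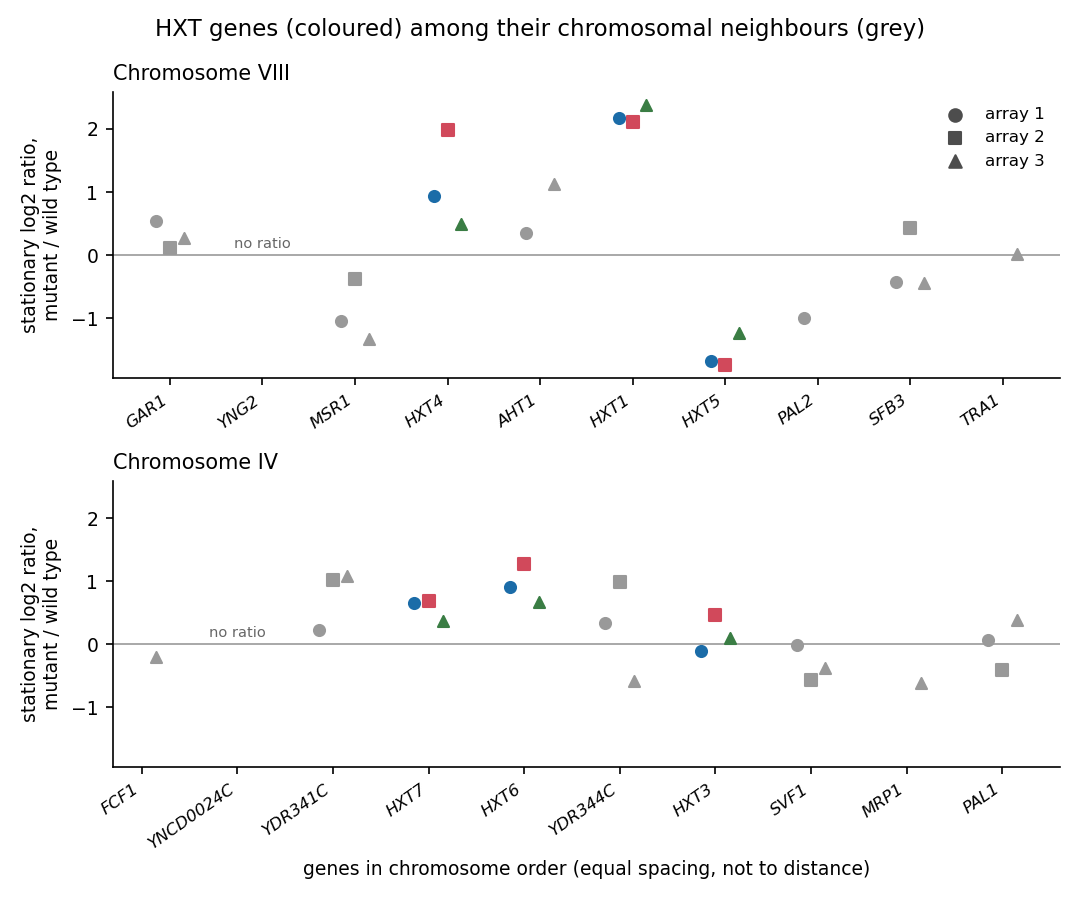
Stationary log2 ratio of mutant over wild type (vertical axis) of the HXT genes (coloured) and the nearest genes (grey) in chromosome order, 1 point per array. HXT1 at 2.12 to 2.38 and HXT5 at -1.74 to -1.22 stand next to each other on chromosome VIII.

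The genes whose ratios over the 6 arrays lay nearest to those of HXT1, by Euclidean distance among 3019 other genes with 6 ratios, were KTD1, CSA1, YKR075C, DOG1 and MCM5. Their distances ran from 1.12 to 1.44. Being the 5 smallest, they lie below the median of 4.10 by choice. DOG1, which encodes a 2-deoxyglucose-6-phosphate phosphatase, had stationary ratios of 0.93, 1.55 and 2.29. YKR075C had 1.85, 1.88 and 2.22, the tightest of the 5. The authors' deposited table gave smaller values, 0.37 for DOG1, 0.78 for YKR075C and 0.81 for MCM5, which it called, and 0.15 for KTD1 and 0.21 for CSA1, which it did not. MCM5 lies on chromosome XII. Within the group HXT6 came 62nd and HXT4 66th by this distance, HXT7 239th, HXT3 889th and HXT5 2921st.

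Other genes of sugar uptake and glucose signalling were described from lists, with the count called by limma beside the median. An unadjusted p under 0.05 was met by 13.3% of all tested genes in mid-exponential and 24% in stationary phase. Of the other hexose transporter genes, HXT8 to HXT17 and the galactose permease gene GAL2, 6 of 11 were tested and none was called in either phase. The stationary median was 0.09, against -0.02 over all tested genes, and -0.24 without stationary replicate 2. At an unadjusted p under 0.05 there were 0 in mid-exponential and 1 in stationary phase. GAL2, on chromosome XII, had 0.58, 0.45 and 1.50 in stationary phase, above 0 on each array. The authors' deposited table called GAL2 higher in both phases, at 0.34 and 0.49. HXT10 was split in mid-exponential phase, at 0.19, 2.93 and -0.12, and HXT11 had 3 ratios there, from -1.82 to 0.06. Several of these carriers are near-identical to each other and uncertain on their own.

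The chain from the sensors to the repressor Rgt1 gave no call. None of 9 tested genes of 10 passed in either phase by limma, nor any of 10 in the authors' deposited table, and 0 and 1 were at an unadjusted p under 0.05. The stationary median was -0.21, and -0.09 in the authors' deposited table. SKP1, a subunit of the ubiquitin ligase that acts on Mth1, had -0.10, -0.12 and -0.29 in mid-exponential phase. In stationary phase SKP1 had 0.77, 0.31 and 0.86 (limma adjusted p = 0.085). STD1, the partner of MTH1, had -0.01, -2.41 and -0.35 in stationary phase, and the casein kinase gene YCK2 had -0.32, -0.07 and -2.01. In both a single array made most of the mean. RGT1 itself was left out of the refit because of its well. The authors' deposited table listed it at -0.09 and -0.14, not called.

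Glucose repression and the entry of sugar into glycolysis followed. Of the Snf1-Mig1 genes, which govern glucose repression, none of 12 tested was called in either phase by limma, none was at an unadjusted p under 0.05 in either, and the authors' deposited table called none of 13. The stationary median was -0.07. The kinase gene TOS3, upstream of Snf1, had 0.96, 0.09 and 0.95 in mid-exponential phase, GAL83 had 0.43, 0.30 and 0.40, and GLC7 had 1.71, -0.32 and 0.29 in stationary phase. Of 4 hexose kinase genes none was called by limma, with 1 at an unadjusted p under 0.05 in each phase. HXK2, the main hexokinase of glucose-grown cells, had 0.97, 0.35 and 0.75 in mid-exponential phase. In stationary phase HXK2 had 2.13 and 1.17 on arrays 1 and 2 (limma adjusted p = 0.054). The authors' deposited table called HXK2 higher in mid-exponential phase, at 0.56, and listed it at 0.24 in stationary phase, not called. HXK1 was spread over -1.14 to 2.61 in stationary phase. EMI2 had -0.03, -0.72 and -0.68 in mid-exponential phase, which the authors' deposited table called lower, at -0.39.

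Glucose-repressed genes had a stationary median of -0.96 over 8 tested of 13, against -0.02 over all tested genes. That median rested on few genes: it was -0.015 over the 6 genes left without mid-exponential replicate 1, and again without replicate 3, and -0.53 over the 5 genes on all 6 arrays. It was -0.012 over the 13 genes in the authors' deposited table. Of the 8, 1 passed the limma test, against 4.76% of all tested genes, and 5 were at an unadjusted p under 0.05, against 24%. These 5 were not all lower: JEN1, among them, was higher, at 0.34 and 1.51 on stationary arrays 1 and 3. SIP4, an activator of gluconeogenic genes, had -1.62, -2.41 and -1.50 and fell by 1.84 ± 0.50 (SD, n = 3, limma adjusted p = 0.030). On the mid-exponential arrays that measured SIP4, 1 and 3, its ratios were -1.62 and -1.24. ACS1, an acetyl-CoA synthetase gene, had -1.56, -0.43 and -2.64, and the malate synthase gene MLS1 had -1.34, -2.54 and -0.92, both below 0 on each array (limma adjusted p = 0.083 and 0.074). The authors' deposited table called 3 of the 13 lower and none higher in stationary phase, against 2.14% and 2.04% of its 6388 genes. Among the 3 were SIP4 at -0.38 and ACS1 at -0.88, and MLS1 was listed at -0.05, not called. In mid-exponential phase it called SIP4 lower too, at -0.30. The invertase gene SUC2 had 1.69, 1.64 and 1.09 in mid-exponential phase. The authors' deposited table called SUC2 higher there, at 1.20. In stationary phase SUC2 rested on array 2, with 0.03, 3.91 and -0.03. The fit takes 1 spread over both phases, so that array also widened the mid-exponential SE of SUC2, to 0.76 (limma adjusted p = 0.46). In mid-exponential phase the list's median was -0.06, limma called none of the 8, and 1 was at an unadjusted p under 0.05.

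**Figure D5:**
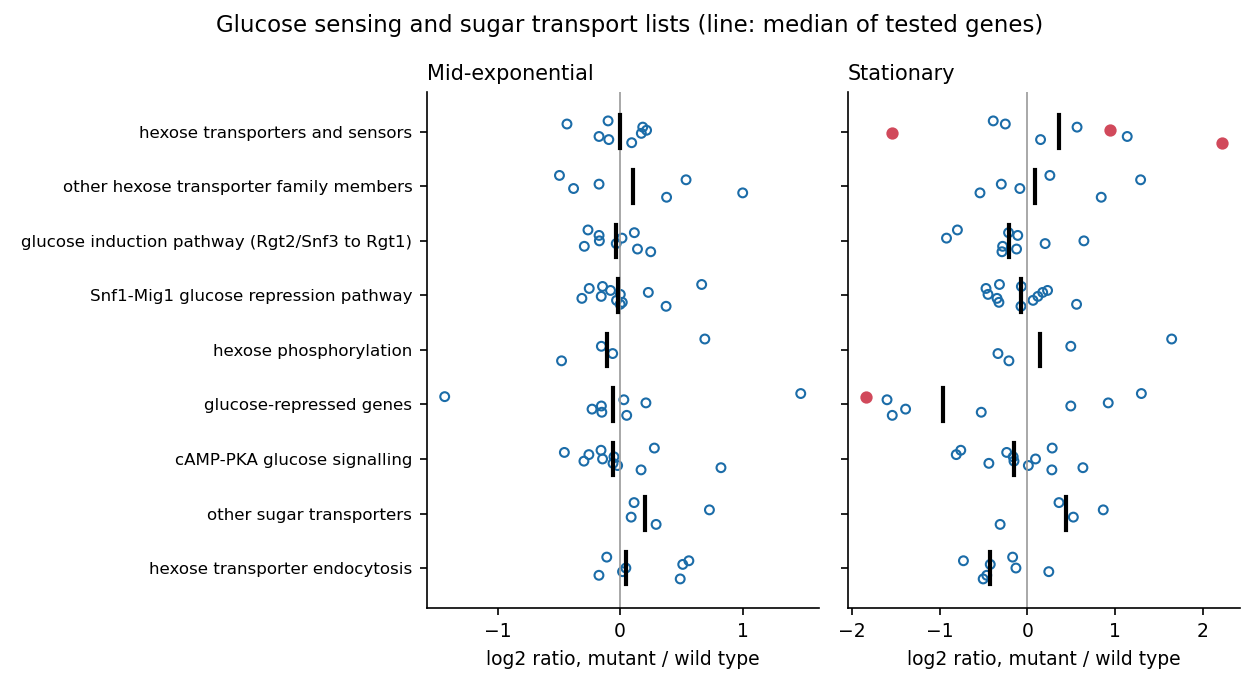
Fitted log2 ratio of mutant over wild type (horizontal axis) of the tested genes of each list, mid-exponential at left and stationary at right. Filled points passed the limma test (HXT1, HXT6, HXT5 and SIP4, all in stationary phase), open points did not, and lines are medians of the tested genes.

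In the cyclic AMP branch of glucose signalling limma called none of 11 tested genes in either phase, with 1 and 4 at an unadjusted p under 0.05. PDE2, the high-affinity cyclic AMP phosphodiesterase gene, had -0.53, -1.07 and -0.83 in stationary phase (limma adjusted p = 0.055). It was below 0 on each array, and the authors' deposited table called PDE2 lower, at -0.41. CDC25, the Ras exchange factor gene, had 0.67, 0.77 and 1.03 in mid-exponential phase and lies on chromosome XII. The authors' deposited table called CDC25 higher there, at 0.49. Of the other sugar and polyol transporter genes, 4 of 10 were tested and limma called none in either phase, with none at an unadjusted p under 0.05. The maltose permease gene MAL31 had 0.68, 1.09 and 0.42 in mid-exponential phase, above 0 on each array, and the authors' deposited table called MAL31 higher there, at 0.49. MAL31 had -0.30, 3.38 and -0.48 in stationary phase, carried by array 2, and the glycerol transporter gene STL1 had 0.55, 0.03 and 0.51. Of the genes for endocytosis of transporters limma called none of 7 tested in either phase, with 0 and 1 at an unadjusted p under 0.05. ROD1 had 0.86, 0.30 and 0.38 and ROG3 had 0.56, 0.36 and 0.76 in mid-exponential phase. Their spots were dim there, with authors' mean log2 intensities of 7.26 and 7.27, below the lower quartile of 7.32. The authors' deposited table listed ROD1 at 0.13 and ROG3 at 0.21 in that phase, not called. In stationary phase each had ratios on both sides of 0. ROD1, ROG3 and CSR2 encode arrestin-like adaptors. CSR2, with too few mid-exponential ratios for the fit, had -1.21, -2.13 and -1.19 in stationary phase. The authors' deposited table called CSR2 lower there, at -0.38.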

How the data were processed

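Values on the authors' spot-level arrays are deposited log2 ratios. The submitters' processing notes name limma and R 2.9.2 without giving their role, and how background was corrected and arrays were normalized is not stated in the labels or headers. Per the file headers, the authors' gene tables hold 6388 genes per phase with a log2 change, a t score, a raw p-value, its adjusted value and the average log2 intensity, and the stationary one also a linear fold ratio. The deposited ratios already ran as mutant over wild type, since 98.6 to 100% of called genes kept the authors' sign on each array. The slope of array means on the authors' values over bright genes was 1.19 and 1.53.

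Spots took genes through printing wells, and 228 genes of row E on plates 10 to 19, whose names could not be relied on, were left out. In all 5849 genes were found in the reference R64 by locus tag, which gave symbols and gene order. In limma 3.58.1 (R 4.3.3) 1 model over the 6 arrays gave each phase a mean, with 4 residual and 2.28 prior degrees of freedom, for the 4289 genes with 2 or more ratios per phase. Both phases of a gene thus shared 1 estimate of its spread. P-values were two-sided and adjusted over these genes by Benjamini-Hochberg, with 0.05 as the threshold. The script was tested on simulated data. Tables and plots came from Python 3.11.15 with numpy 2.4.6, pandas 2.3.3 and matplotlib 3.10.9.

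Replicates were separate fermentations per the labels, with vessels shared in part between phases. Alternatives were a dye term, a replicate block, 1 spread or a median of 0 for all arrays, other filters, single spots, separate phases, arrays left out and the authors' values. Members and lists were chosen with earlier results of these data known. List genes named are those called in any contrast and up to 3 others with the largest mean ratio among genes on all arrays of a phase. JEN1 and CDC34 were named beyond this rule. The values of 1 gene that this rule names are not reported here.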

Additional observations from a re-analysis of the deposited data

Results flagged for a closer look

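HXT1 was the 1 gene of the group called for a strain difference that differed between phases, against 0.117% of all tested genes. Its stationary ratio stood 2.13 above the mid-exponential one on the log2 scale (limma adjusted p = 0.043). The group was drawn up with these ratios known, so the call is a description and not independent support. The call held in 5 of 14 alternatives and in 1 of the 6 fits that left out an array, with adjusted p up to 0.48.

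For SKP1, CDC34 and ITR1 every array of one phase lay on the other side of 0 from every array of the other phase. They were picked by this pattern, and its share over all genes was not counted. Arrays of the phases not overlapping, a wider condition, was met by 21.5% of the 3020 tested genes with 6 ratios. SKP1 stood 0.81 higher in stationary phase (limma adjusted p = 0.27 for the difference). ITR1, a myo-inositol transporter gene, stood at 0.27, 0.21 and 0.41 in mid-exponential and -0.43, -0.23 and -0.27 in stationary phase, a difference of -0.61 (limma adjusted p = 0.30). CDC34, which encodes a ubiquitin-conjugating enzyme and was named after its values were seen, stood at 0.01, 0.47 and 0.27 in mid-exponential and -0.48, -0.10 and -0.29 in stationary phase, a difference of -0.54 (limma adjusted p = 0.40). None of the 3 differences passed the test.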

How the results depend on the processing

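The direction of HXT1, HXT4, HXT5, HXT6 and HXT7 in stationary phase was the same under all 16 alternatives, and HXT1 was called in 14 of them, with values from 1.76 to 2.27. HXT5 ranged from -1.71 to -0.53 and HXT6 from 0.75 to 1.09, each called in 7 of 16. The array numbers pair the phases only in part, and deviations of same-numbered arrays correlated at 0.08, 0.21 and -0.05. With the replicate block 0, 0 and 1 genes were called in mid-exponential phase, in stationary phase and for the difference, against 9, 204 and 5 (479 and 847 in the 2 phases at an unadjusted p under 0.05), and 0 of the group in stationary phase (HXT1 at 2.22, adjusted p = 0.090) and for the difference. Of all tested genes, a dye term left 1, 72 and 2 calls, and 0 of the group for the difference. Arrays brought to 1 spread gave 177 and 27 in the 2 phases, and of the group 1 in stationary phase and 0 for the difference. The higher-numbered spot gave 1 in mid-exponential phase and 2 for the difference, with 0 of the group, and the lower-numbered spot gave 3. Each phase fitted on its own gave 0 in both phases, with 1228 and 553 at an unadjusted p under 0.05, and 0 of the group in stationary phase. The authors' deposited table had 658 and 267, and 1 and 5 of the group. Leaving out 1 array gave 0 to 15, 6 to 355 and 1 to 21 calls, and 0, 1 to 3 and 0 to 1 of the group. The highest counts, 15, 355 and 21, came without stationary replicate 2, and the lowest stationary count, 6, without mid-exponential replicate 3. Fewer arrays leave fewer degrees of freedom. Signs turned for 5 values near 0. In mid-exponential phase HXT1 stood at -0.015 in the authors' deposited table, and leaving out 1 array moved HXT3 over -0.16 to 0.046, HXT5 over -0.14 to 0.37 and RGT2 over -0.24 to 0.016, with the sign turned without replicate 3 for HXT3 and without replicate 1 for HXT5 and RGT2. In stationary phase HXT3 ran from -0.0052, without replicate 2, to 0.28. Where not stated, the cause was not tested. Dim spots limit HXT2, SNF3 and mid-exponential HXT5.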
